A study of Mus musculus with 8 samples.

Results

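The 8 genes described here, Tcf7l2, Rorb, Lhx9, Slc17a6, Ntng1, Prkcd, Rgs16 and Synpo2, are used as markers of neurons of the thalamus. They are 8 of the 19505 genes named on the arrays, each taken as the row with the highest mean over the 8 arrays. They were chosen because they were higher in both extract groups than in water with the tail suspension test (TST), so their size and direction in those 2 comparisons describe the choice and are given without a test. The samples came from brains of male ICR mice, an outbred strain, bought at 8 weeks of age, and each of the 4 groups had 2 Clariom S arrays. The groups were low-dose rosemary extract (RE) with TST, high-dose RE with TST, water with TST and water without TST. The TST suspends a mouse by the tail and records how long it stops struggling. RE was given by mouth in water for 7 days, at 10 mg/kg in the low-dose group. The labels give the high dose once as 100 mg/kg and once as 50 mg/kg, and it is left unnumbered below. No group carried a genetic change. The labels do not say whether an RNA sample came from 1 mouse or from a pool of the 7 mice assigned to its group, so a p-value speaks only of the spread among the samples at hand, which may be technical.

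The thalamus relays sensory and motor signals to the cortex and is also wired into limbic circuits. Its relay neurons are glutamatergic and load their vesicles mostly with the transporter encoded by Slc17a6 (VGLUT2), whereas neurons of cortex and hippocampus mostly use the one encoded by Slc17a7 (VGLUT1). In the labels the tissue is the limbic system in one place and the hippocampus in another, and the thalamus is not mentioned. The arrays carried both kinds of marker. Tbr1, a transcription factor of cortical excitatory neurons, lay between 9.25 and 13.65 on the log2 scale of the deposited values, and Neurod6, of cortical and hippocampal pyramidal cells, between 8.71 and 13.26. In whole-tissue RNA, fewer cells of a type and less RNA per cell cannot be told apart.

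One array, replicate 2 of water with TST, was unlike the others. Its correlations with the other arrays across rows lay between 0.967 and 0.978, and those among the other arrays between 0.983 and 0.993. Cerebellar markers were high on it and, less so, on water without TST replicate 1. Gabra6, whose GABA receptor subunit marks cerebellar granule cells, was at 16.37 and 14.31 on these arrays and between 4.69 and 8.42 on the rest. Results against water with TST are given with and without the first of these arrays. All values are deposited log2 values, and 1359 of them exceed 16, the limit of a 16-bit scanner, so the size of a difference is that of the deposited scale and may be stretched against the measured intensity.

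Among the 3 transcription factors, Tcf7l2, an HMG-box partner of beta-catenin that thalamic neurons keep into adulthood, was at 14.94 and 14.82 with low-dose RE and at 14.72 and 14.68 with high-dose RE, against 13.87 and 12.37 in water with TST and 13.58 and 13.27 in water without TST. All 4 extract arrays lay above all 4 water arrays. Rorb, an orphan nuclear receptor of sensory thalamic nuclei and cortical layer 4, was at 13.33 and 13.22 with low-dose RE and at 12.99 and 13.19 with high-dose RE, against 12.92 and 10.60 in water with TST and 12.49 and 12.73 in water without TST. The extract arrays were again above every water array, but by only 0.07 between the lowest of them and water with TST replicate 1. Rorb had another, dimmer row, on which the groups overlapped: low-dose RE was at 11.28 and 10.82 and high-dose RE at 10.91 and 11.38, against 11.23 and 8.72 in water with TST and 10.68 and 10.74 in water without TST. Lhx9, a LIM homeodomain factor of the developing thalamus, was at 8.26 and 8.16 with low-dose RE and at 8.20 and 8.01 with high-dose RE, against 7.68 and 6.98 in water with TST and 7.67 and 7.09 in water without TST. Here too the extract arrays did not overlap the water arrays.

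The synaptic genes differed from each other. Slc17a6 was at 13.14 and 12.71 with low-dose RE and at 12.86 and 12.69 with high-dose RE, against 11.92 and 12.51 in water with TST and 11.86 and 12.53 in water without TST. It was the only one of the 8 genes that was not lowest on water with TST replicate 2; its lowest array was water without TST replicate 1. Neurons of hypothalamus, midbrain and hindbrain also use this transporter. Ntng1, netrin-G1, a membrane-anchored adhesion molecule of thalamocortical axons, was at 13.55 and 13.10 with low-dose RE and at 13.07 and 13.11 with high-dose RE, against 13.17 and 11.18 in water with TST and 12.51 and 12.83 in water without TST. It was the only one of the 8 in which an extract array lay below a water array, since water with TST replicate 1 lay above 3 of the 4 extract arrays.

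Prkcd, Rgs16 and Synpo2 act in signalling and the cytoskeleton. Prkcd, protein kinase C delta, which relay neurons share with cells of the central amygdala, was at 14.92 and 14.12 with low-dose RE and at 13.96 and 14.36 with high-dose RE, against 13.76 and 12.04 in water with TST and 12.75 and 13.28 in water without TST. Rgs16, which speeds the switching-off of G proteins, was at 10.58 and 10.42 with low-dose RE and at 9.96 and 10.58 with high-dose RE, against 9.77 and 7.88 in water with TST and 9.48 and 9.29 in water without TST. For both genes the lowest extract array was within 0.20 of the highest water array. Synpo2, an actin-binding protein also found in muscle, was at 9.23 and 8.68 with low-dose RE and at 8.58 and 8.88 with high-dose RE, against 8.46 and 5.67 in water with TST and 7.43 and 8.08 in water without TST. Its value on water with TST replicate 2 lay 1.76 below the next lowest array.

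**Figure D1:**
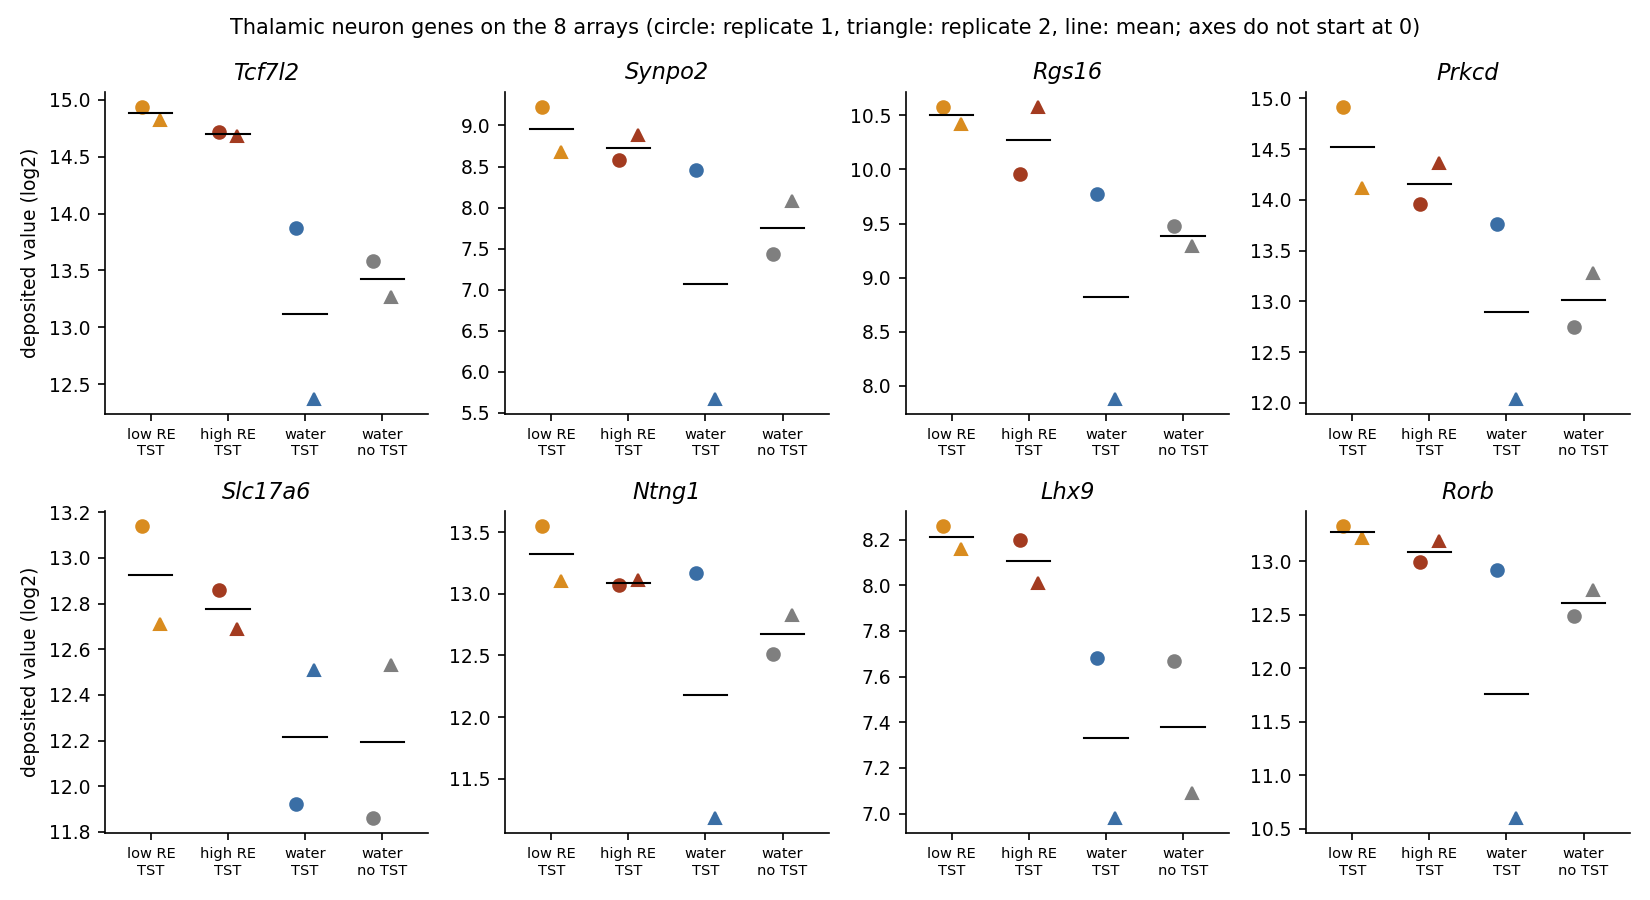
Deposited log2 values (vertical axes, not from 0, and differing between panels) of the 8 thalamic neuron genes on each array, by group (horizontal axis); circles are replicate 1, triangles replicate 2 and lines group means. The triangle of water with TST is the lowest point in 7 of the 8 panels, and the circle of low-dose RE with TST is the highest or joint highest point in all 8.

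Because 3 of the genes encode DNA-binding proteins and the set was chosen for a shared direction against water with TST, the promoters were searched for the short motifs these factors are known to bind. RefSeq promoter windows (GRCm38.p6, 250 bases before to 50 after a start) were at hand for all 8 genes, 12 windows in all. The TCF/LEF motif CTTTGAT, bound by the Tcf7l2 protein, was in 0 of the 12 on either strand and in 3.73% of all 32851 windows. The ROR half-site AGGTCA, bound by the Rorb protein, was in 0 of 12 and in 16.3% of all windows. The LIM homeodomain motif TAATTA, its own reverse complement, was in 2 of 12 and in 5.29% of all windows; no match overlapped another. A match describes letters, not a bound site. The windows holding it belong to Synpo2 and to the downstream one of both Slc17a6 starts, and are shown beside the upstream window of Tcf7l2, which holds none of the motifs. Capitals mark TAATTA.
Synpo2, chr3:123236100-123236399, minus strand: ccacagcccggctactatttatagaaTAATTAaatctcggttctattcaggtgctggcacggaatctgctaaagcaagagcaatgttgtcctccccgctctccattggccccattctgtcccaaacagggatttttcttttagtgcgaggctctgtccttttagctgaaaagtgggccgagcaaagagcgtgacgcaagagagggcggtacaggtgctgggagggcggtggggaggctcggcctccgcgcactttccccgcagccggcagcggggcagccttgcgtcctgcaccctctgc
Slc17a6, chr7:51624387-51624686, plus strand: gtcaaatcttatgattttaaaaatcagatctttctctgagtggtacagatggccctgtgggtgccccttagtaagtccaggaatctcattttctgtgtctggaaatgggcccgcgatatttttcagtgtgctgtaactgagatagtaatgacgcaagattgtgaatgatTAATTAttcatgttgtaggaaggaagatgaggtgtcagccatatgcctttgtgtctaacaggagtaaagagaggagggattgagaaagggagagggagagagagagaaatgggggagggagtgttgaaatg
Tcf7l2, chr19:55741560-55741859, plus strand: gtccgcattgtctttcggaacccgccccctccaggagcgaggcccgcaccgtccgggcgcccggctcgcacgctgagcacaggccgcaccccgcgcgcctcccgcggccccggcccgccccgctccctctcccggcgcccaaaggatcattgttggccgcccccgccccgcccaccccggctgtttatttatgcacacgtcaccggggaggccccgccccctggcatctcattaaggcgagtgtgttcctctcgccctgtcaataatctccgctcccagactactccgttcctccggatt

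Set against water with TST, the comparison by which the genes were chosen, low-dose RE was higher in 8 of 8, with a median log2 difference of 1.567 where all 22206 rows had a median of 0.015. Differences carry the standard error (SE) of a limma fit with 2 arrays per group. They ran from 0.71 (SE 0.323) for Slc17a6 to 1.76 (SE 0.431) for Tcf7l2 and 1.89 (SE 0.749) for Synpo2. High-dose RE was likewise higher in 8 of 8, with a median of 1.295 against 0.01 over all rows, from 0.56 (SE 0.323) for Slc17a6 to 1.58 (SE 0.431) for Tcf7l2 and 1.665 (SE 0.749) for Synpo2. In 7 of the 8 genes both arrays of the low-dose group lay above both of water with TST, and the same held for the high-dose group; over all rows this was so in 13.1% and 15.3%, from which nothing is read since the genes were chosen on it. Both comparisons share the water with TST arrays.

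Most of the size of these differences came from 1 array. Leaving out water with TST replicate 2, so that the lone array left in that group borrows its spread from the other 3 groups, the median was 0.63 for low-dose RE and 0.412 for high-dose RE. Tcf7l2 then stood at 1.01 (SE 0.272) and 0.83 (SE 0.272) for the low and high dose, and Slc17a6 at 1.005 (SE 0.354) and 0.855 (SE 0.354), larger than with all arrays. At the other end, Rorb was at 0.355 and 0.17 (SE 0.271) and Ntng1 at 0.155 and -0.08 (SE 0.303). With its replicate 1 left out instead, the medians were 2.495 and 2.225. Both extract groups had every array above water with TST replicate 1 in 7 of 8 genes, Ntng1 being the exception, where 31.3% of all rows did so for the low dose and 35.9% for the high dose. Nothing is read from this either, since that array belongs to the group against which the genes were chosen.

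**Figure D2:**
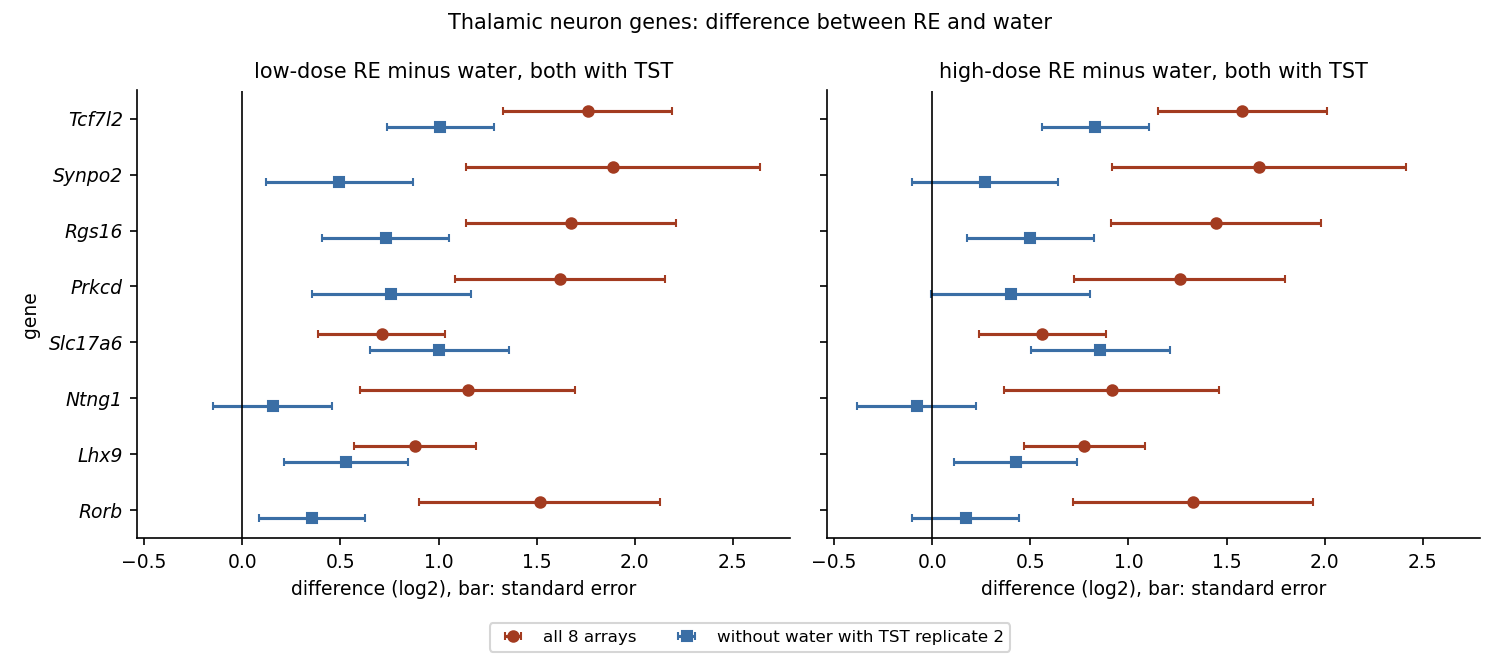
Log2 difference (horizontal axis; bars are the SE of the fit) between each RE dose and water, both with TST, for the 8 genes (vertical axis), with all 8 arrays (red circles) and without water with TST replicate 2 (blue squares). Without that array 7 of the 8 genes move toward 0 in both panels and Slc17a6 moves away from it; the medians go to 0.63 and 0.412, against 1.567 and 1.295 with all arrays.

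The dose comparison played no part in the choice and was tested. High-dose RE was lower than low-dose RE in 8 of 8 genes, by little: the median difference was -0.205, where that of all rows was -0.005. By limma with Benjamini-Hochberg adjustment over all rows, 0 of the 8 passed the study's threshold, which asks for a fold above 1.2 (0.263 in log2) and an unadjusted p under 0.05, beside 1.91% of all rows, and the adjusted p was 1.0 for each. In 2 genes, Tcf7l2 and Rorb, both high-dose arrays lay below both low-dose arrays, as in 13.7% of all rows. For Rorb this depended on the row used. On its dimmer row the doses overlapped, at 11.28 and 10.82 with low-dose RE and 10.91 and 11.38 with high-dose RE, and the high-dose mean was the higher. The largest difference was that of Prkcd at -0.36 (SE 0.536, 95% interval -1.59 to 0.87) and the smallest that of Lhx9 at -0.105 (SE 0.31, 95% interval -0.82 to 0.61). Intervals this wide leave room for a difference of more than 0.5 in either direction in each of the 8. Their width, and so the count of calls, is not that of the RE arrays alone, since the fit shares 1 spread among the 4 groups. For Rorb the SD was 0.0778 with low-dose RE and 0.141 with high-dose RE, but 1.64 in water with TST. The common sign rested on 1 array: low-dose RE replicate 1 was the highest array in 7 genes and joint highest in Rgs16. Without that array the median was -0.033, with 3 genes higher and 5 lower.

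Water without TST gave a second set of water arrays that the choice did not use, although the extract arrays are the same, so no p is read. Both RE groups had TST and this group did not, so extract and TST cannot be told apart in this comparison. The mean of both RE doses was higher than water without TST in 8 of 8 genes, with a median difference of 0.889 beside 0.018 over all rows. In all 8 the 4 extract arrays lay above both arrays of water without TST, as they did in 8.85% of all rows. Nothing is read from this count, since the genes were chosen for being high on the same extract arrays. Tcf7l2 led at 1.365 (SE 0.373), with group means of 14.79 for RE and 13.425 for water without TST, followed by Prkcd at 1.325 (SE 0.464). Ntng1, at 0.538 (SE 0.475), was the smallest. Leaving out any 1 array kept the median between 0.835 and 0.947 and all 8 genes higher.

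Between the water groups, water with TST minus water without TST had a median of -0.40 over the 8 genes (0.005 over all rows), and 7 were lower, from -0.85 (SE 0.612) for Rorb to -0.05 (SE 0.31) for Lhx9, with Slc17a6 at 0.02 (SE 0.323). In all 8 the groups overlapped; over all rows 14.2% were higher and 13.3% lower without overlap. Without water with TST replicate 2 the median turned to 0.415 and 7 of the 8 were higher. The order of the group means was low-dose RE, then high-dose RE, in all 8 genes, and the water groups came below in an order that 1 array decides.

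How far the 2 arrays of a group lay apart differed between the groups. In water with TST the gap had a median of 1.81 over the 8 genes and exceeded 1 in 6 of them, where the median gap of all rows was 0.37. In low-dose RE, high-dose RE and water without TST it was 0.295, 0.195 and 0.425, beside 0.33, 0.22 and 0.25 over all rows, and exceeded 1 in 0 genes. In low-dose RE the gap ran the same way in 8 of 8 genes, with replicate 1 above replicate 2 by between 0.10 (Lhx9) and 0.80 (Prkcd). In high-dose RE and in water without TST replicate 1 was above in 3 of 8.

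Other genes of thalamic relay neurons, none of them used in the choice, ran the same way with all arrays in the fit. This list was kept apart from thalamic genes that cerebellum also uses, given below, with earlier results of these data known. Over both lists 10 of 16 genes were higher and 6 lower for each dose against water with TST, with medians of 0.573 (low dose) and 0.57 (high dose). Of 10 listed relay genes 9 were measured, and all 9 were higher in each RE group than in water with TST. Their medians were 1.225 (low dose) and 0.885 (high dose) beside 0.015 and 0.01 over all rows. For the low dose 4 passed the study's threshold and for the high dose 3, beside 1.94% and 1.67% of all rows called higher; either way 3.54% (787 rows) and 3.17% (705 rows) of the table passed. By limma's adjusted p 0 rows of the table did, while as many rows as passed the study's threshold had an unadjusted p under 0.05. Lef1, the HMG-box relative of Tcf7l2, passed for both doses. It was at 8.88 and 8.16 with low-dose RE and at 8.22 and 8.59 with high-dose RE, against 7.75 and 6.63 in water with TST, with differences of 1.33 (SE 0.411) and 1.215 (SE 0.411). The homeobox gene Shox2 passed for both as well, at 1.245 (SE 0.441) and 1.11 (SE 0.441). Ramp3, a receptor-activity-modifying protein, passed for the low dose, at 1.23 (SE 0.488), and was at 0.49 (SE 0.488) for the high dose; the test of the doses against each other gave -0.74 (SE 0.488, limma adjusted p = 1.0). Amotl1, an angiomotin relative, passed for the low dose at 1.15 (SE 0.479) and the slow-muscle troponin gene Tnnt1 for the high dose at 0.885 (SE 0.287). Gbx2, a homeobox gene of the thalamus, Necab1, Slitrk6 and the pacemaker channel gene Hcn4 passed for neither, with differences between 0.42 and 1.255.

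These calls did not outlast the array that stands apart. Its group is then left with 1 array, so a lost call does not mean that the difference was gone. With water with TST replicate 2 left out, 8 of the 9 relay genes were higher with the low dose (median 0.28) and 6 of 9 with the high dose (median 0.13). Of the 16 other thalamic genes 0 passed in either comparison, and Lef1 was at 0.77 and 0.655, Shox2 at 0.91 and 0.775, Ramp3 at 0.65 and -0.09, Amotl1 at 0.33 and 0.13 and Tnnt1 at 0.28 and 0.565 for the low and high dose. The low-dose calls were also lost without low-dose RE replicate 1, with Lef1 at 0.97, Shox2 at 0.575, Ramp3 at 0.73 and Amotl1 at 0.93. Against water without TST, 3 of the 9 passed for the mean of both RE doses, beside 1.69% of all rows called higher and 2.89% either way. These were Shox2 at 1.377 (SE 0.382), Lef1 at 1.333 (SE 0.356) and Ramp3 at 1.255 (SE 0.422), and all 9 were higher (median 0.435). Without water without TST replicate 1, Lef1 passed at 1.542 while Shox2, at 1.183, and Ramp3, at 0.79, did not. Without replicate 2 of that group Lef1 was at 1.123 and did not pass, and Ramp3 was at 1.005 and did not pass without low-dose RE replicate 1. In the dose comparison 8 of the 9 were lower with the high dose and 0 passed. Between the water groups 0 of the 16 passed, beside 2.55% of all rows.

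Thalamic genes that cerebellar neurons also use were mostly lower in the extract groups than in water with TST with all arrays in the fit. In that comparison the direction was set by water with TST replicate 2. All 7 listed were measured, 6 were lower in each RE group than in water with TST, with medians of -0.44 (low dose) and -0.515 (high dose). Of them 0 passed, beside 1.61% and 1.51% of all rows called lower. Zic1, a zinc-finger factor of cerebellar granule cells and thalamus, was at 12.94 and 12.72 with low-dose RE and at 12.53 and 12.82 with high-dose RE, against 12.80 and 17.17 in water with TST. Its replicate 1 value lay among the extract arrays. The calretinin gene Calb2 was at -1.145 (SE 0.757) and -1.23 (SE 0.757) for the low and high dose and the phospholipase gene Plcb4 at -0.635 (SE 0.64) and -0.70 (SE 0.64). The nuclear receptor gene Rora was at -0.12 (SE 0.41) and -0.515 (SE 0.41), Zic4 at -0.44 (SE 0.308) and -0.40 (SE 0.308), and the calcium channel gene Cacna1g at -0.035 (SE 0.42) and -0.12 (SE 0.42). Only Foxp2 was higher, at 0.545 (SE 0.473) and 0.695 (SE 0.473). Without that array 5 of the 7 were higher with the low dose (median 0.305) and 6 of 7 with the high dose (median 0.06), again with 0 passing. The largest differences were then those of Cacna1g, at 0.665 (SE 0.294) and 0.58 (SE 0.294), and Plcb4, at 0.555 (SE 0.318) and 0.49 (SE 0.318), both higher with RE. Against water without TST, 5 of the 7 were lower and 2 higher for the mean of both RE doses. The median was -0.065 and the differences ran from -1.347 to 0.653. Without both arrays high in cerebellar markers, 4 were higher and 3 lower in that comparison (median 0.085).

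**Figure D3:**
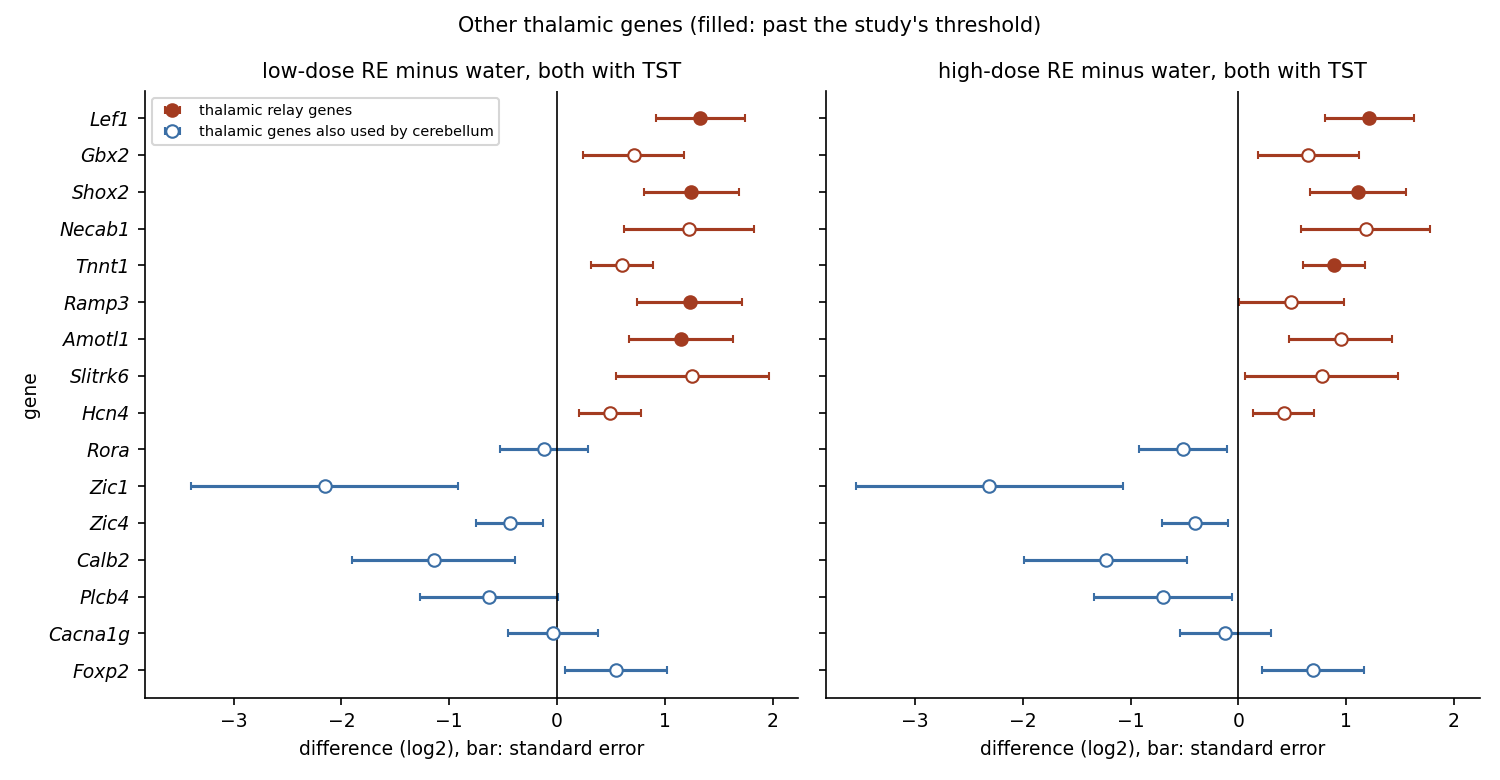
Log2 difference (horizontal axis; bars are the SE of the fit) between each RE dose and water, both with TST, for 16 other thalamic genes (vertical axis); filled points pass the study's threshold. All 9 relay genes (red) lie above 0 in both panels, and 6 of the 7 genes that cerebellum also uses (blue) lie below it; without water with TST replicate 2, not drawn, 5 and 6 of those 7 lie above 0.

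The mean level of the 8 genes on each array, relative to its 8-array mean, was 0.827 and 0.487 with low-dose RE and 0.376 and 0.521 with high-dose RE, against 0.027 and -1.51 in water with TST and -0.445 and -0.279 in water without TST. Lists for other regions and cell types show what moved with it. Cerebellar granule cell markers (8 of 9 measured) were at -1.60 and -1.42 with low-dose RE and at -0.982 and -1.57 with high-dose RE, against -1.51 and 4.75 in water with TST and 2.85 and -0.523 in water without TST. The extract arrays and water with TST replicate 1 thus had like levels of them, and against that array alone the thalamic median difference was 0.63 (low dose) and 0.413 (high dose). Without both arrays high in these markers, the comparison with water with TST is that same one again (medians 0.63 and 0.412), since only its replicate 1 is left. The median of RE against water without TST, with only replicate 2 of that group left, was 0.911, with 8 of 8 genes higher. With the cerebellar level as a covariate in the fit, the medians were 0.768, 0.587 and 0.54, and in the last of these comparisons 6 of 8 genes were higher, Rorb being at -0.204 and Ntng1 at -0.147.

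Forebrain excitatory markers (7 of 9 measured) were low on water with TST replicate 2, at -1.97, as were choroid plexus markers at -1.80, and they ordered the other arrays in their own way. On water with TST replicate 1 the forebrain list was at 0.637, above every extract array (0.222 to 0.57), and the choroid plexus list at 0.474, where the extract arrays spread from -0.001 to 0.961. Without water with TST replicate 2 the forebrain median against water with TST was -0.13 for the low dose and -0.33 for the high dose. Against water without TST, however, the forebrain genes ran as the thalamic ones did: 7 of 7 were higher for the mean of both RE doses (median 0.62). In 6 of them all 4 extract arrays lay above both water arrays, as in 8.85% of all rows. Habenula markers, of the nucleus beside the dorsal thalamus (6 of 6 measured), were at 0.499 and 0.189 with low-dose RE and 0.17 and 0.165 with high-dose RE, against 0.159 and -0.493 in water with TST and -0.258 and -0.43 in water without TST. In this list Gpr151, an orphan receptor, was at 0.51 (SE 0.267) and 0.39 (SE 0.267) for the low and high dose against water with TST, and the transcription factor gene Pou4f1 at 0.915 (SE 0.535) and 0.995 (SE 0.535), none past the threshold. The list's medians were 0.417 and 0.287 with all arrays and, leaving out water with TST replicate 2, 0.237 and 0.09. Against water without TST, 5 of the 6 were higher for the mean of both RE doses (median 0.445) and 2 passed, beside 1.69% of all rows called higher. These were Pou4f1 at 1.785 (SE 0.464) and the nicotinic receptor subunit gene Chrnb4 at 0.623 (SE 0.195). Chrnb4 was lower with the high dose elsewhere, passing at -0.645 (SE 0.225) for the high dose against water with TST and at -0.535 (SE 0.225) for the high against the low dose, with limma adjusted p-values of 0.973 and 1.0. Between the water groups it passed at 1.0 (SE 0.225), higher in water with TST.

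Other cells share single members. Cortical layer 4 markers, which share Rorb, had medians of 0.075 and 0.255 for the low and high dose against water with TST. Without replicate 2 of that group they were -0.03 and 0.035. The channel gene Scnn1a among these markers passed for the low dose at 1.17 (SE 0.485) with all arrays. For the mean of both doses against water without TST, 4 of the 5 layer 4 markers were higher (median 0.245). Smooth muscle and mural markers, which share Synpo2, had medians of -0.085 and -0.013 against water with TST, and of -0.173 and -0.193 without its replicate 2. Central amygdala markers, which share Prkcd, had medians of 0.455 and 0.61 against water with TST, but of -0.12 and -0.005 without its replicate 2. Their median was -0.075 for the mean of both doses against water without TST, and they were highest on water without TST replicate 2. Oligodendrocyte markers, whose maturing cells share Tcf7l2, had medians of 0.125 and 0.093 against water with TST, and of 0.302 and 0.182 without its replicate 2. For the mean of both doses against water without TST their median was 0.459. There 5 of 6 were higher and 1 passed, beside 1.69% of all rows called higher. Like the thalamic genes, the layer 4 and oligodendrocyte lists were highest on low-dose RE replicate 1. Markers of the reticular nucleus, the inhibitory shell of the thalamus (4 of 5 measured), and of the hypothalamus (11 of 12) were also highest on water without TST replicate 2, and midbrain markers (5 of 7) on water with TST replicate 2. The reticular markers had medians of 0.208 and 0.455 for the low and high dose against water with TST, and of 0.107 and 0.505 without its replicate 2. Against water without TST all 4 were lower for the mean of both RE doses (median -0.664), unlike the 8 genes. Between the water groups 3 of the 4 passed, lower in water with TST, beside 2.55% of all rows passing either way. Genes of neurons in general stayed between -0.182 and 0.115 on all 8 arrays. The remaining lists (Purkinje cells, dentate gyrus granule cells, striatal projection neurons, astrocytes and microglia) are in the plot of list levels. Whether the amount of thalamic tissue in each sample differed was not tested, and with these samples the tissue taken and the treatment cannot be told apart.

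**Figure D4:**
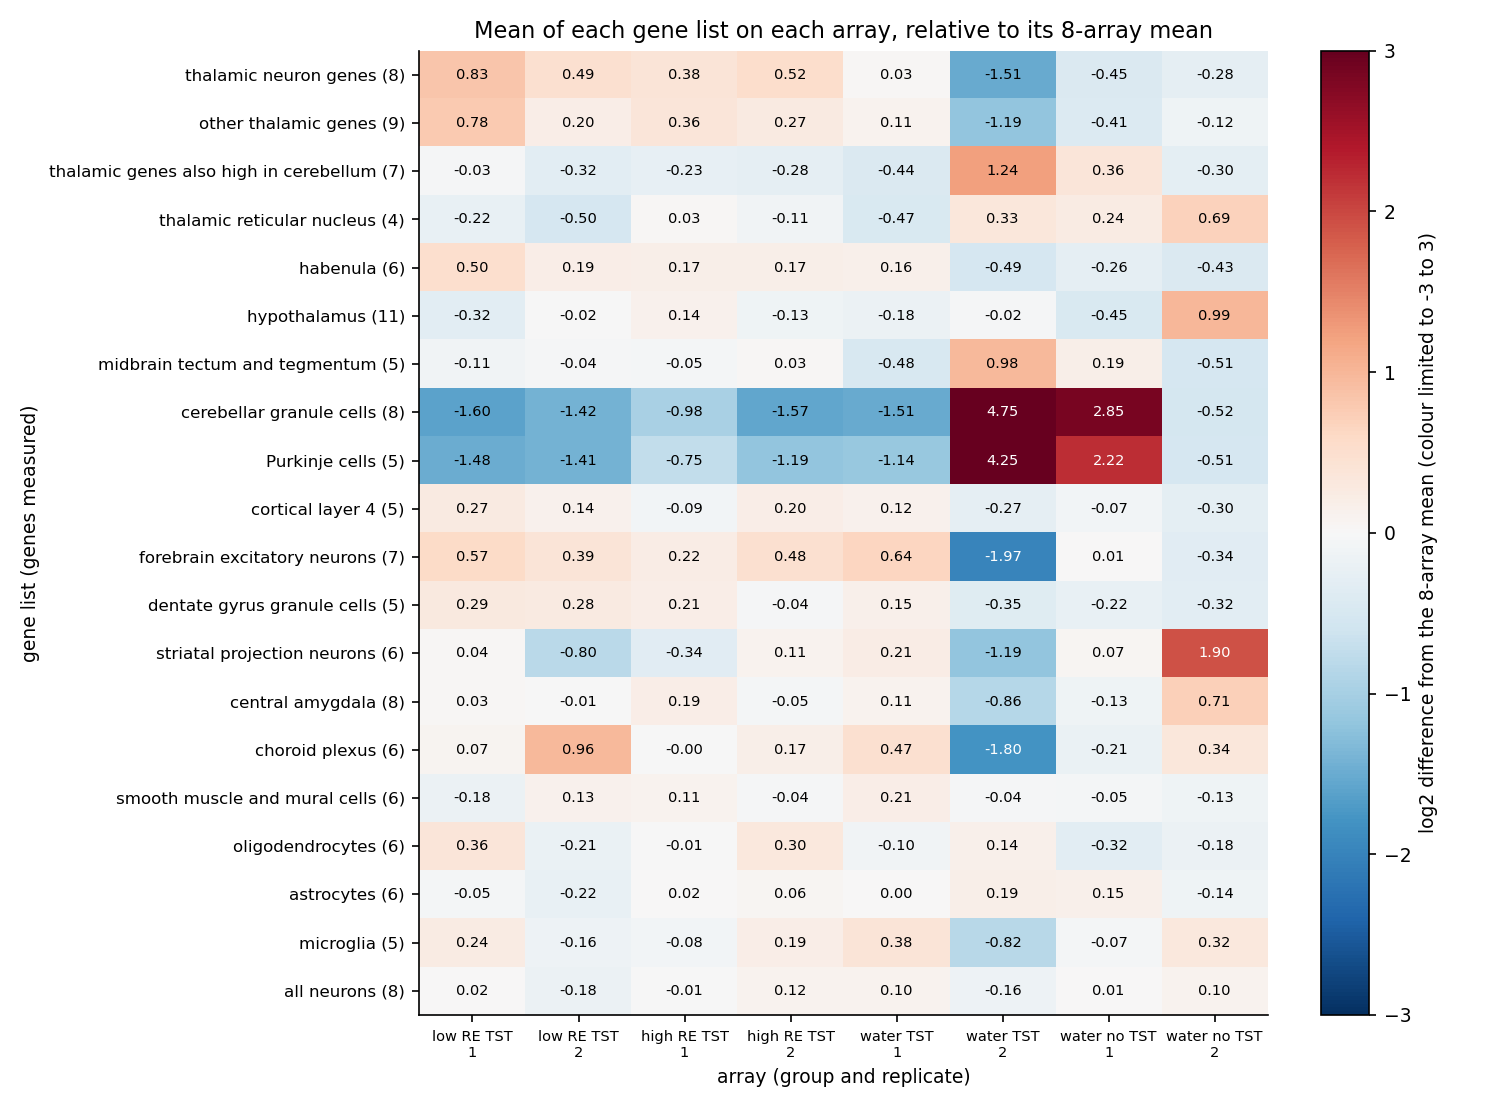
Mean log2 level of each gene list (vertical axis, with the number of genes measured) on each array (horizontal axis), relative to the list's own 8-array mean; red is higher and blue lower, with the value printed in each cell. The thalamic neuron genes are positive on the 4 extract arrays and lowest on water with TST replicate 2, at -1.51, where the cerebellar granule cell list is at 4.75.

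The 8 genes varied together to different degrees. Across the 8 arrays, Pearson's r of a gene with the mean of the other 7 members lay between 0.935 and 0.973 for Tcf7l2, Synpo2, Rgs16, Prkcd, Ntng1 and Rorb, and was 0.867 for Lhx9 and 0.423 for Slc17a6. Over the 7 arrays without water with TST replicate 2, that of Slc17a6 was 0.768, that of Lhx9 0.793 and that of Ntng1 0.864. The rest lay between 0.918 and 0.969. These values describe arrays that share groups and tissue sampling. The genes were also chosen for a shared direction on the same arrays, which favours a positive r, so nothing is read from its size. Among 3318 other named rows with a mean above 7.47 and a range of at least 1, the 8 most like the mean of the thalamic genes were Cacna1b, Sh3d19, Adgrb1, Npnt, Mturn, Vav3, Zdhhc22 and Plekhg1, with r between 0.979 and 0.991 over 8 arrays. Over 7 arrays, without water with TST replicate 2, r lay between 0.934 and 0.986 for these genes. Npnt was at 10.27 and 9.97 with low-dose RE and at 9.73 and 9.92 with high-dose RE, against 9.73 and 7.27 in water with TST and 8.75 and 8.71 in water without TST. In all, 202 of the 3318 rows reached an r of 0.9 over 8 arrays and 31 over the 7 arrays without water with TST replicate 2, 26 of them in both counts.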

How the data were processed

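The series holds 8 Clariom S arrays. Robust multichip averaging by the authors in Transcriptome Analysis Console 4.0.1, per the submitters' design text, gave log2 values from 2.76 to 19.79, used as deposited; array medians lay between 7.45 and 7.51. No depth or detection call comes with them, so precision is set by how many arrays there are. The platform annotation named 19572 of 22206 rows with 1 symbol and left 2634 unnamed here. Groups follow the sample titles.

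A linear model of 4 group means was fitted to all rows and arrays with limma 3.58.1 in R 4.3.3 (lmFit, eBayes, 4 residual and 4.3 prior degrees of freedom, median SE of a difference 0.292), with two-sided tests and Benjamini-Hochberg adjustment across the table. It was run on simulated data for the dose comparison only, with normal noise of 1 spread per row and no array standing apart. There it recovered 81 of 100 rows changed by 1 log2 unit and 100 of 100 changed by 2. Of unchanged rows 4.99% had a limma p under 0.05. How the fit behaves with an array that stands apart was not simulated. The members, lists and tests were chosen with earlier results of these data known. All 8 members and all measured other thalamic genes were named; other lists give up to 2 genes in list order and any past the threshold in the dose comparison, and array-wide markers used to show what stood apart (Gabra6, Tbr1, Neurod6) were chosen after their values were seen. Replicate numbers shared by the groups did not pair the arrays: correlations of same-numbered deviations lay between -0.2925 and 0.1694.

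The alternatives were a replicate block, only the groups compared, a trended robust prior, dropping the dimmest 25% of rows, quantile normalization on top, omitting each array in turn, omitting both arrays high in cerebellar markers, their level as a covariate, the mean of a gene's rows, and the methods' one-way analysis of variance. List medians and the count of like rows without water with TST replicate 2 were added after seeing the data.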

Additional observations from a re-analysis of the deposited data

How the results depend on the processing

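With 2 arrays per group and 1 array that stands apart, counts of calls were unstable. With the replicate block, a pairing by number that the arrays do not bear out, the medians of the 8 genes were the same as without it (1.567, 1.295, -0.205, -0.40 and 0.889), the rows called were 702, 632, 409, 497 and 563, and no call among the thalamic counts changed (4, 3, 0, 0 and 3). These run in the order low-dose RE minus water with TST, high-dose RE minus water with TST, high minus low dose, water with TST minus water without TST, and both RE doses minus water without TST, whose main counts of rows are 787, 705, 425, 567 and 641. Quantile normalization, the trended robust prior and the mean of a gene's rows moved no median by more than the replicate spread of 0.71 and no count by over 1.5 times. In a fit of only the groups compared, rows called were 267 for the low dose, 352 for TST and 1193 for both doses against water without TST, with 1 and 6 other thalamic genes for the first and last. Without the dimmest rows, 249 were called in the dose comparison. The methods' analysis of variance called 487 rows and 0 other thalamic genes for the low dose, 0 such genes for the high dose and 986 rows for both doses against water without TST. Without both arrays high in cerebellar markers, the medians were 0.63, 0.412 and 0.43 for the low dose, the high dose and TST, and the other thalamic genes called were 1, 0 and 1, and 5 against water without TST. With the cerebellar covariate, the low-dose median was 0.768, other thalamic genes called were 1, 1, 4 and 5 in these 4 comparisons, and rows called were 1179 for TST and 1571 for both doses against water without TST. Leaving out 1 array at a time moved the medians over 0.63 to 2.495, 0.412 to 2.225, -0.338 to -0.033, -1.272 to 0.415 and 0.835 to 0.947. Rows called ran over 496 to 3767, 354 to 3785, 247 to 1183, 364 to 3707 and 361 to 1193, and other thalamic genes called over 0 to 15, 0 to 15, 0 to 0, 0 to 12 and 1 to 6. The highest counts for the low dose, high dose and TST came without water with TST replicate 1. All counts of other thalamic genes in this paragraph take higher and lower genes together, and the highest of each range held both. Turned in sign and past the threshold were Calb2 for TST at -1.37 without water with TST replicate 2 and at -1.11 without both arrays, Cacna1g for the low dose at 0.665 without both arrays and 0.604 with the covariate, and Plcb4 for both doses against water without TST at 0.844 with the covariate; none had passed with all arrays. The cause of these moves was not tested beyond the arrays and terms named.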
